A study of Mus musculus with 2 samples.

Results

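The Toll-like receptors and the C-type lectin genes were examined as the pattern-recognition receptor families of mouse cells sorted as innate lymphoid cell (ILC) progenitors. Members were all genes whose array annotation symbol is Tlr followed by a number, or Clec followed by a number and a letter. This gave 44 genes, 12 Toll-like receptor genes and 32 C-type lectin genes, of 19505 genes measured. Each had 1 probe set, the group of array probes summarised into 1 value. The first array held RNA of wild-type sorted cells, and the second RNA of sorted cells whose labels give a Yeats4 knockout. Wild-type and Yeats4-deleted mice were littermates per the design text, and Yeats4 encodes a chromatin subunit that reads acetylated histones. Both samples were sorted as lineage-negative, CD127-positive, α4β7-positive cells with intermediate c-Kit and Sca-1. The sources used here name no strain, age, tissue, number of mice, Cre driver or deletion strategy.

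Toll-like receptors are membrane receptors with leucine-rich repeats that bind microbial lipids, proteins or nucleic acids. They signal through the adaptors MyD88 and TRIF to NF-κB and to interferon regulatory factors. C-type lectin receptors share a carbohydrate-recognition fold. Some signal through the kinase Syk by way of activating adaptors, others carry inhibitory tyrosine motifs, and others are ligands of natural killer (NK) cell receptors or secreted proteins. Both families are known mainly from macrophages, dendritic cells, granulocytes and B cells, and several are also expressed by early haematopoietic progenitors.

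Each genotype had 1 array, so no difference has a replicate check and no p-value is given. Values are log2 expression, and every difference is taken as labelled knockout minus wild type. The 95th percentile of 5222 negative control probe sets was 4.80 in wild type and 4.73 in the array labelled knockout, and 4.80 is used below as the background level for both. The local spread is the scaled median absolute deviation of the differences of the 500 genes nearest in mean level, and it holds any real differences too. Yeats4 read 5.96 in wild type and 5.90 in the array labelled knockout, so its transcript does not check the label. The sort gate genes Il7r, Kit, Itga4 and Itgb7 read above background on both arrays. Il7r was at 7.07 and 6.38 (-0.70, local spread 0.28) and Kit at 7.12 and 7.77 (0.65, local spread 0.25). Itga4 was at 7.38 and 7.38 and Itgb7 at 6.46 and 6.32. The gene of Sca-1 is not shown. Each value is a bulk measure of all cells in the sort, in which fewer cells of a type and less RNA per cell cannot be told apart. Of 13 measured neutrophil markers 12 were above background on both arrays, among them Elane at 11.14 and 11.47. Of 14 measured ILC progenitor markers 10 were above it on both arrays, and Rora, Pdcd1 and Cxcr6 were under it on both. The share of ILC progenitors in the sorted cells was not tested.

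No Toll-like receptor or C-type lectin gene that passed the level filter differed 2-fold between the arrays. The filter kept genes whose mean of both arrays reached 2.88, the median over probe sets, and 22 members (50%) passed it beside 55.8% of all genes. Of these, 0 were 2-fold higher and 0 were 2-fold lower on the array labelled knockout, against 1.56% and 0.781% of the 10881 genes past the filter and 3.43% and 6.37% of the negative controls past it. With a 1.5-fold threshold 4 of the 22 were higher and 1 was lower, against 9.16% and 5.16% of genes and 11.4% and 20.2% of negative controls. Past the filter 12 members read higher and 10 lower, where 58.2% and 41% of genes did. The median difference was -0.01 over the 5 Toll-like receptor genes past the filter and 0.07 over the 17 C-type lectin genes, beside 0.08 over all genes past it. Over all 44 members, filtered or not, 20 read higher, 22 read lower and 2 read the same, with a median of -0.01 beside 0.01 over all genes, of which 50.8% read higher and 46.6% lower. The difference was larger than the local spread for 14 members (31.8%), beside 33.9% of all genes, and larger than 2 local spreads for 1 (Clec4b2), beside 6.27%. With 22 members and a background near 1%, a count of 0 is not a result about the members.

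Most of the members were not distinguished from background in these cells. Both arrays were above 4.80 for 9 members (20.5%), beside 26.7% of all genes. These were the Toll-like receptor genes Tlr2, Tlr7 and Tlr9 and the C-type lectin genes Clec2d, Clec2f, Clec4e, Clec5a, Clec10a and Clec12a. A further 3 were above it on 1 array only, namely Clec2g and Clec2i on the wild-type array and Clec4a1 on the array labelled knockout. The other 32 were under it on both arrays, where most negative controls also lie.

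**Figure D1:**
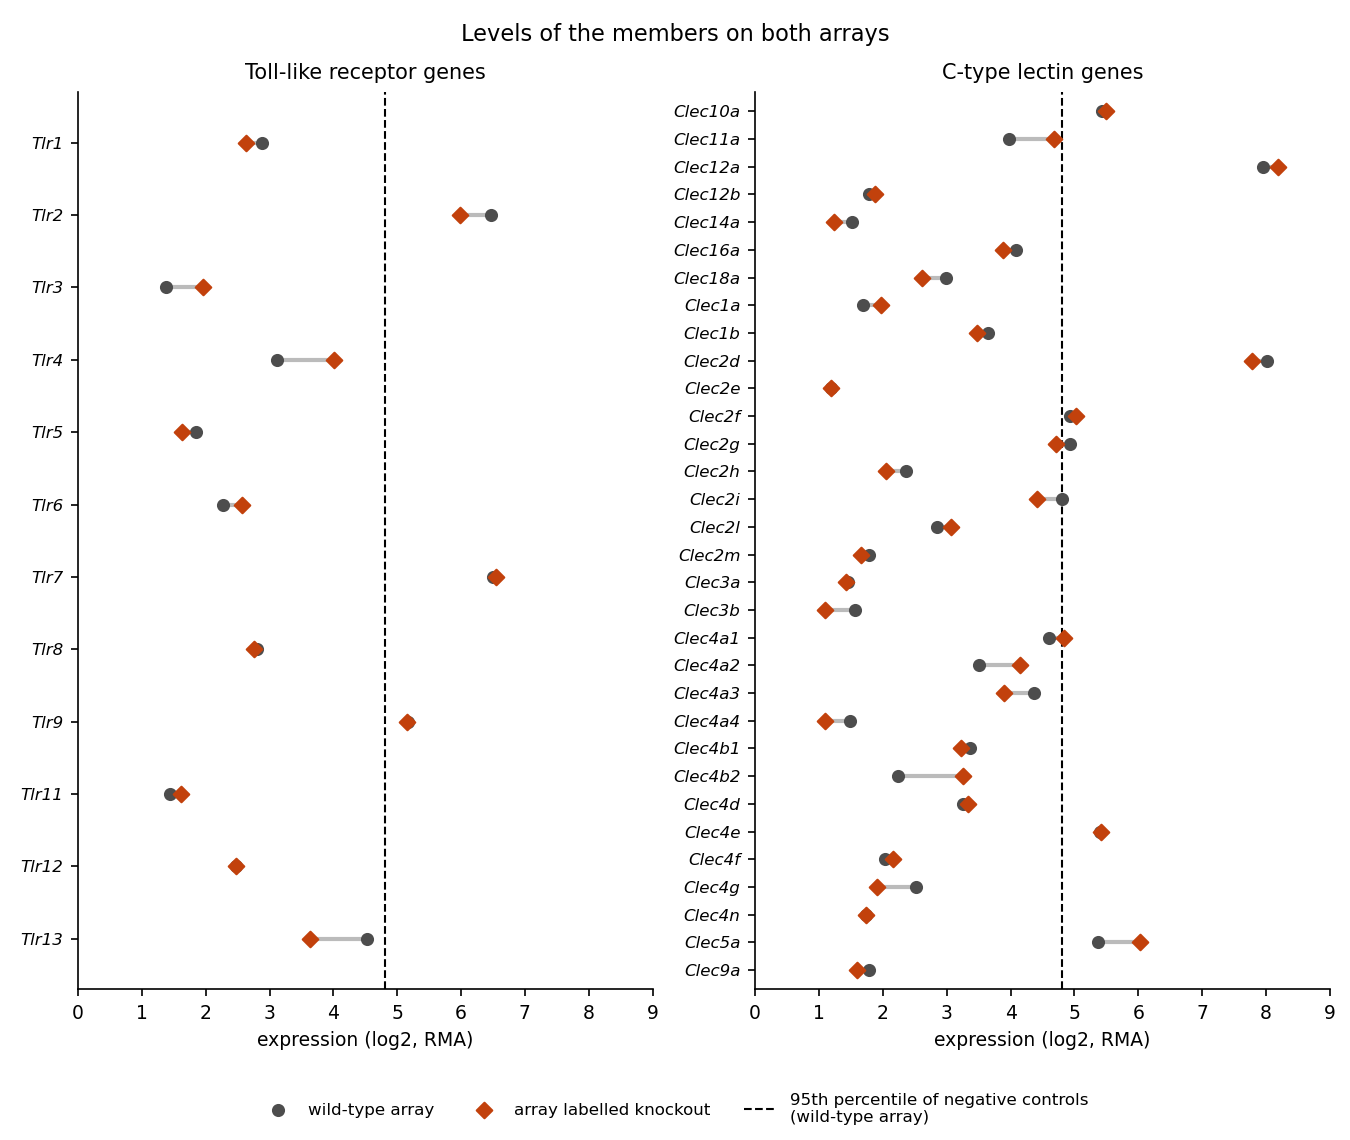
Expression (log2, RMA) of the 12 Toll-like receptor genes and 32 C-type lectin genes on the wild-type array (grey circles) and the array labelled knockout (orange diamonds), 1 array each. The dashed line is the 95th percentile of the negative controls on the wild-type array (4.80), and 9 genes lie to its right on both arrays. Levels of different genes come from different probes and are not compared.

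The sequences just upstream of 3 of the 9 genes above background are shown. Clec5a and Tlr2 had the largest difference above and below 0 among the 9. Clec12a differed little and was taken as an inhibitory receptor known from myeloid progenitors. Each sequence is the 250 bases before the RefSeq start on GRCm38.p6, 5′ to 3′ in the direction of the gene, in lower case. Capitals mark GAGGAA or its reverse complement TTCCTC, the core of the binding site of the myeloid and lymphoid factor PU.1. The window of Clec5a is chr6:40585806-40586055 on the minus strand, that of Clec12a chr6:129349994-129350243 on the plus strand and that of Tlr2 chr3:83841609-83841858 on the minus strand.
Clec5a: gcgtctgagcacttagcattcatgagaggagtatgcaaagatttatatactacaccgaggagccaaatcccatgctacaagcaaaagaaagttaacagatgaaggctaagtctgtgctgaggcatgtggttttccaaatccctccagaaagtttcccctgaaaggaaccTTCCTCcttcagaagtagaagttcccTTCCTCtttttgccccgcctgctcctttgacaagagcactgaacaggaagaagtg
Clec12a: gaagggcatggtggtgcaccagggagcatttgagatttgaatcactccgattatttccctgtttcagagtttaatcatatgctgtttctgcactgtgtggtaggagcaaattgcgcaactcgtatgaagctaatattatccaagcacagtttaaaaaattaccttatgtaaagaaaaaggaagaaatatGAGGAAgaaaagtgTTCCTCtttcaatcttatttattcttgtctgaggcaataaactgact
Tlr2: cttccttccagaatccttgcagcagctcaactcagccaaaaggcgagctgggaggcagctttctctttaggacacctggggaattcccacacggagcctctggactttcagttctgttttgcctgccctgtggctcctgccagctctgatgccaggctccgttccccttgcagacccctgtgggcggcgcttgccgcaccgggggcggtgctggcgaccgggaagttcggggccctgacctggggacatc
Clec5a and Clec12a each hold 2 matches and Tlr2 holds 0. Of the other genes above background with a window, Clec4e holds 2 (difference 0.02), Tlr9 holds 1 (-0.01) and Clec2d holds 0 (-0.23). The motif was found on either strand in 4 of the 6 genes above background that had a window, and in 18 of 39 windows (46.2%) of the 35 members with a window. Of all 32851 windows of this length 23.3% hold it. Among genes under background on both arrays, Clec11a and Tlr13 hold it and Clec12b and Tlr3 do not. A tie of the motif to level or to the direction of a difference was not tested. The longer form AGGAAGT, which shares 5 letters with GAGGAA and was searched in both directions (ACTTCCT on the other strand), was found in 0 of the 6 and in 4 of the 35 members, against 7.69% of all windows. A match is a string of letters in this window and does not show binding, and the choice of GAGGAA was made after AGGAAGT had been searched.

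Among the Toll-like receptors of the cell surface, Tlr2 was the member above background, and it read lower on the array labelled knockout. Tlr2, which senses bacterial lipopeptides in pairs with Tlr1 or Tlr6, was at 6.47 in wild type and 5.99 in the array labelled knockout. The difference of -0.48 is 1.40-fold and was larger than the local spread of genes (0.29), and about that of negative controls of like level (0.46). It was -0.64 after a loess correction for level and -0.62 after quantile normalization. Its partners were under background on both arrays, with Tlr1 at 2.89 and 2.63 and Tlr6 at 2.26 and 2.57. Tlr4, the receptor of lipopolysaccharide, read 3.12 and 4.0. Its difference of 0.89 exceeded the local spread of genes (0.46) and of negative controls (0.62). However, both values lie under background, so no fold is given. Tlr5, the flagellin receptor, read 1.86 and 1.63, under background on both arrays.

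The endosomal sensors of nucleic acids differed little where they were measured above background. Tlr7, which binds single-stranded RNA, read 6.50 in wild type and 6.55 in the array labelled knockout. Tlr9, which binds unmethylated CpG DNA, read 5.17 and 5.15. The differences of 0.04 and -0.01 were far smaller than the local spreads (0.31 and 0.34). Both changed sign with the scaling. Tlr7 was at -0.11 after a loess correction for level, and Tlr9 was at 0.03 after centring on the median. Tlr13, which senses bacterial ribosomal RNA, read 4.53 and 3.64, and its difference of -0.89 exceeded the local spread (0.47), with both values under background. The other receptors of this kind were far under background. Tlr8 read 2.80 and 2.76, and Tlr3, a sensor of viral RNA duplexes, read 1.38 and 1.96. The profilin sensors Tlr11 and Tlr12 read 1.43 and 1.61, and 2.47 and 2.48. Tlr7 and Tlr9 are known from plasmacytoid dendritic cells and B cells. All 10 measured genes of the plasmacytoid dendritic cell list passed the filter, 9 were above background on both arrays, and their median difference was 0.03 (range -0.30 to 0.62). The B cell list had a median of -0.86, with 10 of 10 genes past the filter lower, where 41% of all genes past it were. The part of these cells in the Tlr7 and Tlr9 values was not tested.

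**Figure D2:**
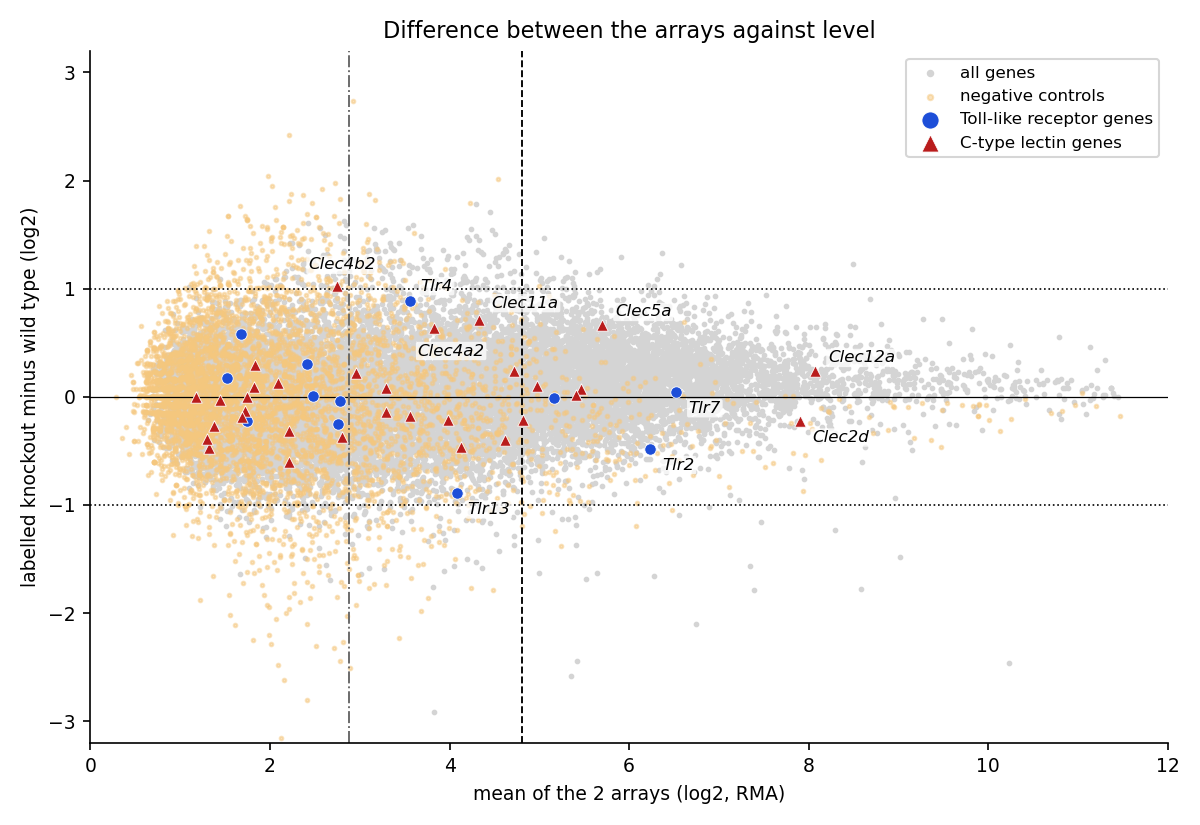
Difference between the array labelled knockout and the wild-type array (log2) against the mean of the 2 arrays, for all genes (grey), negative controls (yellow), Toll-like receptor genes (blue circles) and C-type lectin genes (red triangles). Dotted lines mark 2-fold, the dash-dotted line the level filter (2.88) and the dashed line the background level (4.80). The members lie within the cloud of all genes, and Clec4b2, left of the filter, is the only member past 2-fold.

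The co-receptors and chaperones of Toll-like receptors were mostly above background and close to all genes in their differences. Of 11 measured genes 10 passed the filter, and their median was 0.08. None differed 2-fold in either direction, beside 1.56% of all genes past the filter higher and 0.781% lower. Lbp, the lipopolysaccharide binding protein, read 7.34 in wild type and 7.93 in the array labelled knockout (0.59, local spread 0.23). Hsp90b1, the chaperone gp96, read 8.64 and 9.11 (0.47, local spread 0.18), and Nrros, a negative regulator, read 6.16 and 6.41 (0.25, local spread 0.30). The co-receptors of Tlr4 read above background although Tlr4 did not, with Cd14 at 5.19 and 5.07 and Ly96 at 6.56 and 6.53. Unc93b1, which carries the nucleic acid sensors to endosomes, read 7.11 and 7.07. Cd180, a relative of Tlr4, and its partner Ly86 read 7.66 and 7.84, and 7.92 and 8.10.

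Downstream of the receptors no gene passed 2-fold, where 1.56% of all genes past the filter were 2-fold higher and 0.781% lower. Of 20 measured adaptors, kinases and regulators 19 passed the filter, with 12 higher, 7 lower and a median of 0.03. Tnfaip3, which encodes the NF-κB inhibitor A20, read 8.89 in wild type and 8.29 in the array labelled knockout. Its difference of -0.60 is 1.52-fold and larger than the local spread of 0.18. Myd88, the adaptor shared by most Toll-like receptors, read 5.54 and 5.99 (0.45, local spread 0.33). After the loess correction Tnfaip3 was at -0.74 and Myd88 at 0.31, within its local spread. Tirap, the bridging adaptor of Tlr2 and Tlr4, read 4.57 and 5.06 (0.50, local spread 0.41) and was above background on the array labelled knockout only. All 14 measured NF-κB and interferon regulatory factor genes passed the filter, with 6 higher, 7 lower, 1 the same and a median of -0.02. The largest differences were Irf7 (3.10 and 3.72) and Irf5 (4.05 and 3.64), both under background, and the kinase gene Ikbkb (4.98 and 5.33, difference 0.35, local spread 0.34). After the loess correction Ikbkb was at 0.24, within its local spread, and Tirap at 0.42.

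Among the activating C-type lectin receptors, Clec5a read higher on the array labelled knockout and Clec4e read alike on both. Clec5a, a receptor of monocytes and neutrophils that signals through the adaptor DAP12, was at 5.37 in wild type and 6.04 in the array labelled knockout. The difference of 0.67 is 1.59-fold, larger than the local spread of genes (0.35) and of negative controls (0.46), and it was 0.53 after the loess correction. Clec4e, which encodes Mincle and senses mycobacterial glycolipids, read 5.40 and 5.41, and its difference of 0.02, well within the local spread (0.39), was -0.11 after the loess correction. Their signalling partners were above background and differed little, with the DAP12 gene Tyrobp at 7.80 and 7.82 and Fcer1g, the partner of Clec4e, at 8.80 and 8.82. The 6 other measured genes of this group were under background on both arrays. Clec4b2 read 2.24 and 3.26, the only member whose difference (1.02) passed 2-fold, but its mean is under the level filter and the local spread of negative controls was 0.69. Without that filter 1.16% of all genes were 2-fold higher and 0.702% lower. Clec6a and Clec7a were not analysed here.

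The inhibitory receptor Clec12a was above background on both arrays and differed little. It is found on myeloid cells and their progenitors and read 7.96 in wild type and 8.20 in the array labelled knockout. The difference of 0.24 was just larger than the local spread (0.20) and was 0.10 after the loess correction. The median difference of the 268 genes with mean levels from 8 to 9 was 0.14. Clec4a2, the inhibitory receptor DCIR, read 3.51 and 4.15, with both values under background. Clec4a4 and Clec12b were further under background. Clec10a, a galactose-type lectin of macrophages and dendritic cells, read 5.43 and 5.50, a difference of 0.07 that was -0.06 after the loess correction.

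Myeloid marker lists differed in direction between the arrays, and their values stand beside those of Clec5a, Clec12a, Clec10a and Tlr2. Of all genes past the filter 58.2% were higher and 41% lower. Of 13 measured macrophage markers 11 passed it and all 11 were higher, with a median of 0.84. Under the filter, Timd4 (2.60 and 2.79) read higher and Marco (2.73 and 2.20) lower. The summed linear level of the 13 was 425 in wild type and 674 in the array labelled knockout. Both arrays were under background for 7 of the 13, among them Siglec1 (2.41 and 3.76) and Cd5l (2.80 and 4.39). Axl, a receptor kinase of macrophages, read 4.98 and 6.12. Of 13 neutrophil markers 9 were lower and 4 higher, with a median of -0.30 and a summed linear level of 11794 and 12874. The neutrophil gene Retnlg read 8.91 and 7.68, while the early granule genes Ctsg (8.91 and 9.63) and Prtn3 (10.52 and 11.07) read higher. Of 9 monocyte markers 6 were higher and 3 lower, with a median of 0.15 (range -0.35 to 0.67) and a summed linear level of 2143 and 2362. Summed over all genes the linear level was also higher on the array labelled knockout, at 792346 and 850733. The part of these cells in the values of the receptors was not tested.

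The Clec2 family holds ligands of NK cell receptors of the Klrb1 family, and 4 of its 8 measured genes were under background on both arrays. Of the 8, 5 were lower, 2 higher and 1 the same, with a median of -0.18, where 46.6% of all genes were lower. Of the 5 that passed the filter 3 were lower and 2 higher, where 41% of genes were lower, and their median was -0.22, beside 0.08 over all genes past the filter. Clec2d, the ligand of the inhibitory receptor Klrb1b, read 8.01 in wild type and 7.79 in the array labelled knockout. The difference of -0.23 was about the local spread (0.21) and was -0.37 after the loess correction. Clec2f read 4.93 and 5.02, a difference of 0.10 that was 0.01 after that correction. Clec2g read 4.93 and 4.71 and Clec2i read 4.81 and 4.41, both under background on the array labelled knockout and within their local spreads (0.41 and 0.45). Clec2j was not analysed here.

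The receptors of these ligands and other lectin-domain receptors outside both families gave 1 gene past 2-fold among 21 past the filter. Of all genes past it 1.56% were 2-fold higher and 0.781% lower, and of negative controls 3.43% and 6.37%. Klrb1b read 3.66 in wild type and 4.73 in the array labelled knockout, and its difference of 1.07 exceeded the local spread (0.47), with both values under background. Klrd1, the CD94 chain of NK receptors, read 5.46 and 4.51 (-0.95, local spread 0.39) and was under background on the array labelled knockout. The NK cell and ILC1 marker list, which includes Klrd1, had a median of -0.68 over the 8 genes past the filter, 5 of them lower and 3 higher, and of -0.37 over all 12 measured. In that list 3 genes passed 2-fold, all lower, namely Ccl5 (8.29 and 6.50), Il2rb (7.11 and 6.01) and Eomes (5.11 and 4.05). Nkg7, a granule gene of NK cells in the same list, read higher, at 8.63 and 9.16. Mrc1, the macrophage mannose receptor, read 4.86 and 5.60. Its difference of 0.74 is 1.67-fold, with a local spread of 0.34, and it stands beside the macrophage list median of 0.84. The whole set of 32 measured genes was even in direction, with 14 higher, 16 lower and a median of 0.00.

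Most markers of T cells, B cells and eosinophils past the filter read lower on the array labelled knockout, where 41% of all genes past it did. They stand beside the values of Clec2d and Tlr9, which B cells are known to express. The median of the T cell list was -1.63 over 11 genes past the filter, 10 of them lower and 1 higher (Cd4, 5.28 and 5.37), with a summed linear level of 830 and 299.6. Among its genes, Cd3d was at 5.28 and 2.37 and Cd8b1 at 6.64 and 4.06. The B cell list had a summed linear level of 1425 and 797, with the pre-B genes Vpreb1 at 5.40 and 4.03 and Igll1 at 8.05 and 6.88. The eosinophil list had a median of -1.56 over 7 genes past the filter, 5 of them lower and 2 higher. The granule gene Epx read 8.13 and 6.56, while the chemokine receptor gene Ccr3 read 4.02 and 4.98. The ILC progenitor list had a median of -0.25 over 14 genes, with Id2 at 1.23 and Thy1 at -1.66 in difference. The other lists had medians of 0.00 for basophils and mast cells, -0.18 for platelets, -0.23 for endothelium and -0.44 for conventional dendritic cells. The part of these cells in the Clec2 and Toll-like receptor values was not tested.

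**Figure D3:**
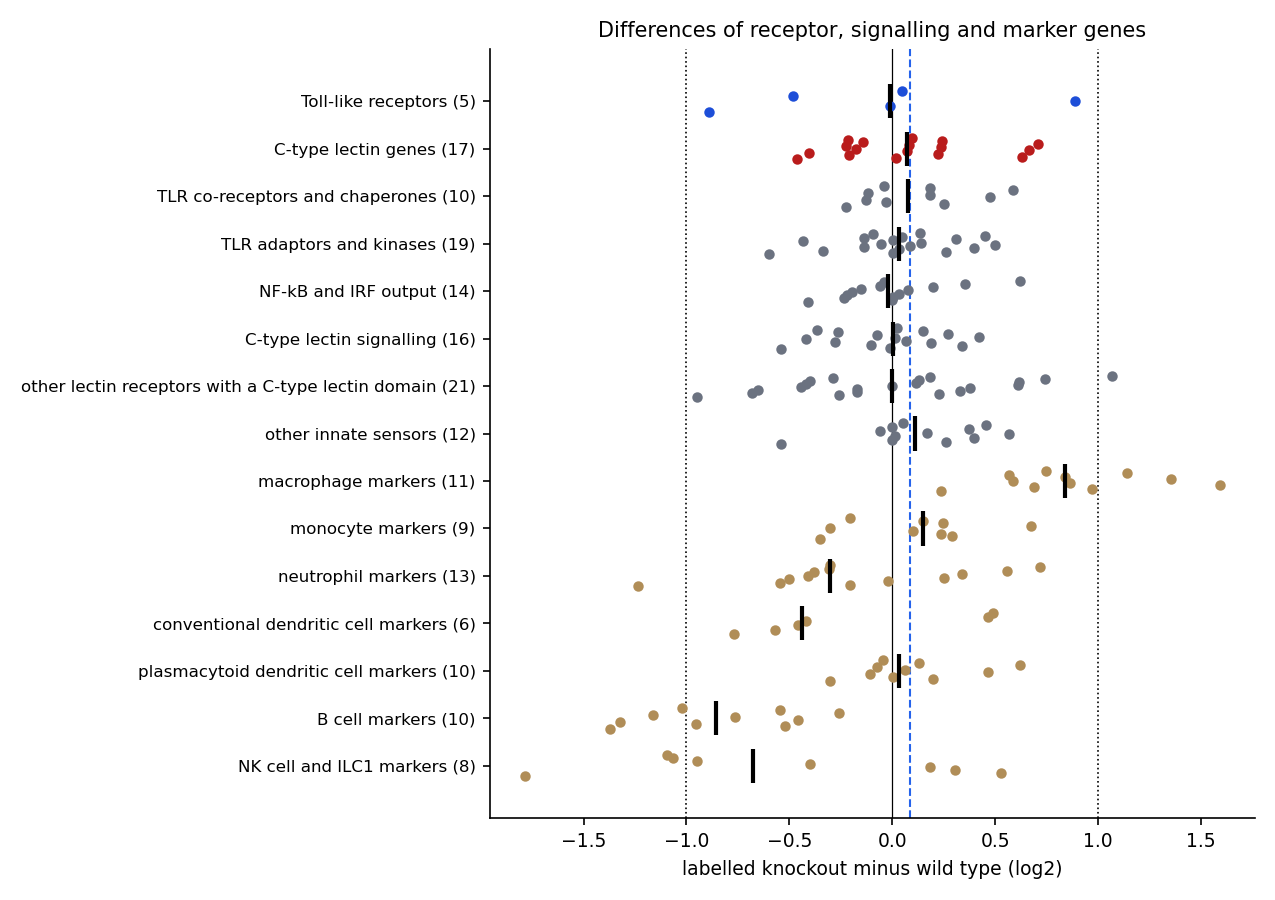
Difference between the arrays (log2) for each gene past the level filter in the member families, the signalling lists and the cell type marker lists, with the number of genes in brackets. Black bars are list medians, the dashed blue line is the median of all genes past the filter (0.08), and dotted lines mark 2-fold. The receptor and signalling lists centre near 0, while the macrophage list lies above it (median 0.84) and the B cell list below it (median -0.86).

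Signalling genes of the C-type lectin receptors were above background for 13 of 16 measured genes. None differed 2-fold, beside 1.56% of all genes past the filter higher and 0.781% lower. All 16 passed the filter, 8 were higher and 8 lower, and the median was 0.00. Plcg1, a phospholipase, read 6.39 in wild type and 5.85 in the array labelled knockout (-0.54, local spread 0.32). Btk, a kinase of B and myeloid cells, read 5.28 and 5.70 (0.42, local spread 0.36). Card9, which links Syk to NF-κB, read 6.83 and 6.41 (-0.42, local spread 0.30), and Syk read 6.92 and 6.65 (-0.26, local spread 0.28). After the loess correction Plcg1, Syk and Card9 were at -0.69, -0.42 and -0.58, and Btk was at 0.29, within its local spread.

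The remaining C-type lectin genes lay under background on at least 1 array. Clec4a1, a relative of Clec4a2, read 4.60 and 4.83, a difference of 0.23 within the local spread of 0.45, and was above background on the array labelled knockout only. The genes that follow were under background on both arrays. Clec11a, a secreted growth factor for haematopoietic progenitors and bone, read 3.97 and 4.68. Its difference of 0.71 (local spread 0.48) was the largest among C-type lectin genes past the filter. Clec16a, a regulator of autophagy despite its name, read 4.09 and 3.87. Clec1b, the platelet receptor of podoplanin, read 3.65 and 3.47, and Clec9a, a dendritic cell receptor for dead cells, read 1.78 and 1.59. The lowest differences among lectins under background were Clec4g, a lectin of liver sinusoids (2.51 and 1.91), Clec3b, which encodes tetranectin (1.56 and 1.09), and Clec4a3 (4.36 and 3.90). The other liver and endothelial genes Clec4f, Clec14a and Clec1a read between 1.24 and 2.16 on both arrays.

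Neighbouring C-type lectin genes read in both directions. On the RefSeq gene order (GRCm38.p6), 21 of the 32 lie in 2 groups in which each is within 10 protein-coding genes of the next. In the Clec4 group of 9 genes 5 were higher, 3 lower and 1 the same, with a median of 0.02. Clec4a3 (-0.46) and Clec4a4 (-0.39) lay next to each other, and so did Clec4a2 (0.63) and Clec4b2 (1.02), all under background. In the group of 12 genes that holds 7 of the 8 measured Clec2 genes (Clec2l lies elsewhere), the Clec12 and Clec1 genes and Clec9a, 4 were higher, 7 lower and 1 the same, with a median of -0.16. Genes within these groups are close relatives, and binding of a transcript to a relative's probes was not tested.

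**Figure D4:**
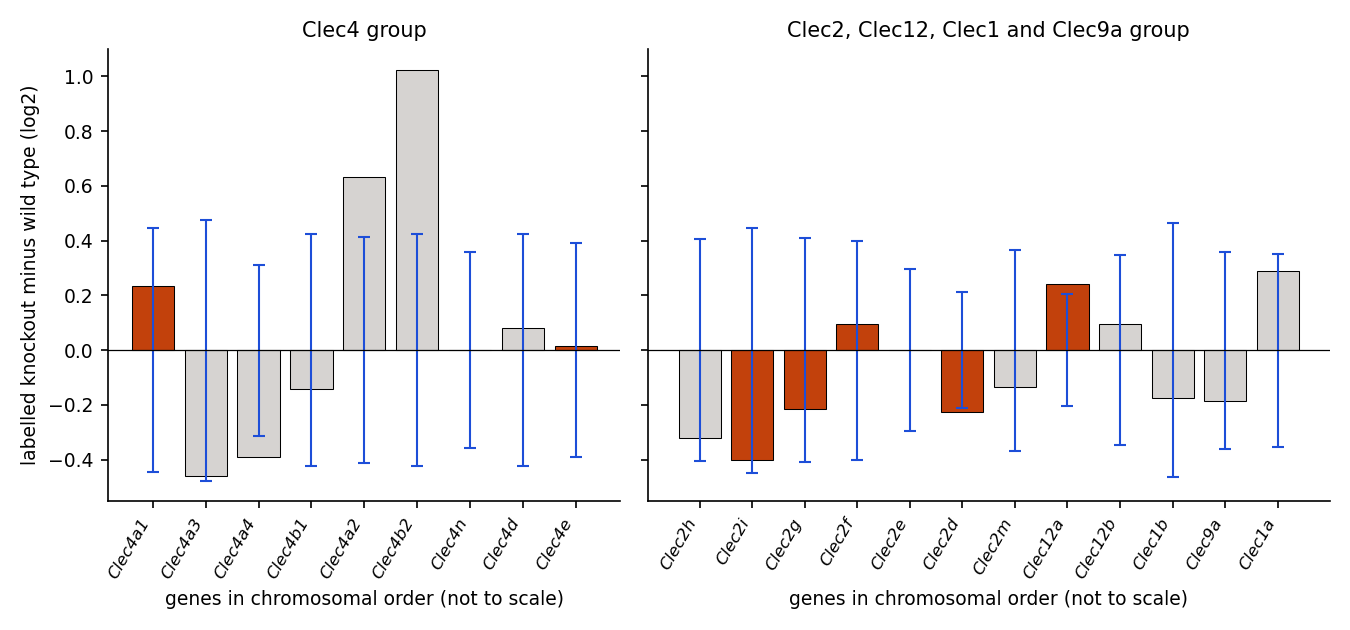
Difference between the arrays (log2, bars) of C-type lectin genes in 2 chromosomal groups, in chromosomal order and not to scale. Orange bars are genes above the background level on at least 1 array and grey bars genes under it on both, and blue whiskers are 1 local spread on either side of 0. Clec4b2 and Clec4a2 stand highest, both under background, and 5 of the 7 Clec2 genes shown lie below 0.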

How the data were processed

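Log2 expression values of 1 wild-type array and 1 array labelled Yeats4 knockout were used as deposited. The authors made these log2 values with Affymetrix Power Tools and RMA, per the submitters' processing notes. RMA corrects background, applies quantile normalization and summarises probes, so a change of total RNA per cell is not visible. The deposited columns still differed, with array medians of 2.91 in wild type and 2.87 in the array labelled knockout. The median difference of genes was 0.05 at mean levels from 4 to 5 and 0.17 from 6 to 7. Quantile normalization applied again moved the median past the filter from 0.08 to 0.01. Differences are uncorrected for this offset unless stated. The sources used here state no tool version or genome build. The array type named in the design differs from that of the probe annotation used (platform annotation, GRCm38.p6 names through gene identifiers, 44 of 44 members matched).

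The table has 29129 probe sets. A gene was represented by its probe set of highest mean. With 1 array a genotype there is no test, and the number of arrays limits the precision. Named were every Toll-like receptor gene, C-type lectin genes above background on at least 1 array, the 3 highest and 3 lowest of the rest, and the 3 largest differences of each signalling list. Marker lists are given by their medians with fewer of these genes than the rule names. Others were chosen after their values were seen, as were the promoters shown. The members and lists were chosen with earlier results of these data known. Alternatives were other level filters, values raised to background, centring on the median, loess on level (span 0.3), quantile normalization, the mean of probe sets and a 1.5-fold threshold. Counting and spread code was tested on simulated data with set differences well past the threshold and less noise than the local spreads here. That checks the code and not the calls in these data. Python 3.11.15, numpy 2.4.6, pandas 2.3.3 and statsmodels 0.14.6 were used.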

Additional observations from a re-analysis of the deposited data

How the results depend on the processing

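The count of members past 2-fold was 0 under every level filter, scaling and probe set rule tried, except that Clec4b2 (1 C-type lectin gene higher) passed with no level filter. With 1.56% of all genes past the filter 2-fold higher and 0.781% lower, 0 of 22 members is not a result about them. The probe set rule could not change the count, since each member has 1 probe set, and raising values to background can only shrink a difference. With a 1.5-fold threshold 1 Toll-like receptor gene was higher (Tlr4) and 1 lower (Tlr13), and 3 C-type lectin genes were higher (Clec11a, Clec5a and Clec4a2). Of these 5, Clec5a alone was above background. The family medians stayed near 0 but without a stable sign. For Toll-like receptors they ran from -0.12 (loess) to 0.03 (centred), and for C-type lectin genes from -0.06 (loess) to 0.11 (centred). Over all genes, 2-fold counts higher and lower were 35 and 25 with the 75th percentile filter, 38 and 25 with the negative control filter, 19 and 23 with values raised to background, and 997 and 561 at 1.5-fold. With no filter 137 were lower. Of 125 values of 27 named members under these alternatives, 117 moved by less than the local spread. The other 8 are genes under background, set to 0 by raising. The sign turned for 5 members (Tlr7, Tlr8, Tlr9, Clec10a and Clec4e). No paired analysis was possible because each genotype has 1 array.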

Other observations

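Cytosolic sensors of microbial products, which lie outside both families, gave no 2-fold difference, beside 1.56% of all genes past the filter higher and 0.781% lower. Of 15 measured genes 12 passed the level filter, with 8 higher, 2 lower and 2 the same, and a median of 0.11 beside 0.08 over all genes past it. Mavs, the mitochondrial adaptor of RNA helicase sensors, read 5.61 in wild type and 6.17 in the array labelled knockout (0.56, local spread 0.34). Aim2, an inflammasome sensor of DNA, read 3.37 and 3.83, and Zbp1, a sensor of left-handed nucleic acids, read 3.81 and 3.27, with both genes under background. The inflammasome adaptor Pycard read 5.37 and 5.42, and Ifih1, the RNA sensor MDA5, read 5.03 and 5.20.

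Clec2e and Clec4n had the same deposited value on both arrays to the last digit. The same held for 509 of all 19505 genes (2.61%).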
